A study of Mus musculus with 8 samples.

Results

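Activins and growth differentiation factors are secreted dimers of the transforming growth factor β (TGF-β) superfamily, and follistatins are secreted proteins that bind some of them. The 10 genes described here encode activin subunits (Inhba, Inhbb), growth differentiation factors (Gdf10, Gdf11, Gdf15), activin receptors (Acvr1c, Acvr2a) and follistatin family proteins (Fst, Fstl3, Fstl1). They were taken by symbol from a table of raw counts for 20781 genes, and all 10 passed the filter on low counts. Bulk RNA sequencing was done on cultured fibro-adipogenic progenitors (FAPs), mesenchymal muscle cells able to form adipocytes or fibroblasts. In the melatonin group (4 libraries), the cells received melatonin, a hormone of the pineal gland, for 24 h in vitro. In the vehicle group (4 libraries), they received the vehicle for the same time. All 8 libraries came from uninjured quadriceps, gastrocnemius and tibialis anterior of wild-type male C57BL/6 mice (C57BL/6J in the series text), cultured for 48 h before treatment. The extraction protocol names longissimus dorsi instead, and neither the age of the animals nor the melatonin concentration is stated in the labels.

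Activins are dimers of β subunits: Inhba encodes βA and Inhbb encodes βB. An activin binds a type II receptor such as the product of Acvr2a, which phosphorylates a type I receptor, which in turn phosphorylates SMAD2 and SMAD3 in the cytoplasm. Follistatin (Fst) and follistatin-like 3 (Fstl3) wrap around activins and the related myostatin and GDF11 and keep them from their receptors, while follistatin-like 1 (Fstl1) shares a follistatin domain but does not inhibit activin in this way. In skeletal muscle, FAPs are a known source of follistatin, and activins and myostatin limit muscle mass.

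Library totals ran from 35584931 to 49769873 counts with melatonin and from 45682034 to 52401153 counts with vehicle. TMM factors, which scale library sizes, were 1.05 to 1.08 with melatonin and 0.916 to 0.974 with vehicle. Mitochondrially encoded genes took 2.09% to 2.44% of counts with melatonin and 1.05% to 1.3% with vehicle. Melatonin replicate 4 stood apart on the second principal component. FAP markers were present in every library, with Pdgfra at a mean of 465 CPM (counts relative to the TMM-scaled size of the library) with melatonin and 570 CPM with vehicle. Summed markers of adipocytes came to 903 to 1160 CPM with melatonin and 215 to 225 CPM with vehicle. Of the 8 tested adipocyte markers 7 rose, beside 18.1% of all tested genes, and Lep, also listed, was not analysed here. The summed FAP markers came to 2210 to 2390 CPM with melatonin and 3030 to 3100 CPM with vehicle, of which Dcn made the largest share of the difference (351 CPM with melatonin and 911 CPM with vehicle). Of the 8 FAP markers 3 fell, beside 18.5% of all tested genes, and 5 did not pass. Thy1 was among the 5, at 491 CPM with melatonin and 426 CPM with vehicle. The part of the FAP markers and that of the adipocyte markers in the results below were not tested. In bulk RNA, fewer cells of a type and less RNA per cell cannot be told apart.

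With melatonin, transcripts of both activin subunits and of all 3 follistatin family genes fell, Gdf10, Gdf11 and Acvr2a rose, and the 4 Gdf15 values of each group overlapped. Log2 fold changes below are melatonin over vehicle ± standard error, tested with edgeR's quasi-likelihood test and adjusted by the Benjamini-Hochberg method over the 16565 tested genes, with a call at an adjusted p under 0.05. Group means are given ± SD with n = 4 libraries each. Of the 9 genes that passed the low-count filter in both groups, 3 were called higher and 5 lower. Over all tested genes, 36.5% were called, 18.1% higher and 18.5% lower. The libraries of these 8 genes did not overlap between groups, beside 18.5% of all tested genes that lay wholly above and 19.2% that lay wholly below. Acvr1c was also called higher, but passed the filter only through the melatonin libraries. The filter thus favoured a higher value with melatonin, and Acvr1c is not counted. A change of at least 2-fold was called downwards for Inhba and Fstl3 (7.23% of all tested genes) and upwards for Gdf10 (2.77%). Acvr1c is left out here too.

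**Figure D1:**
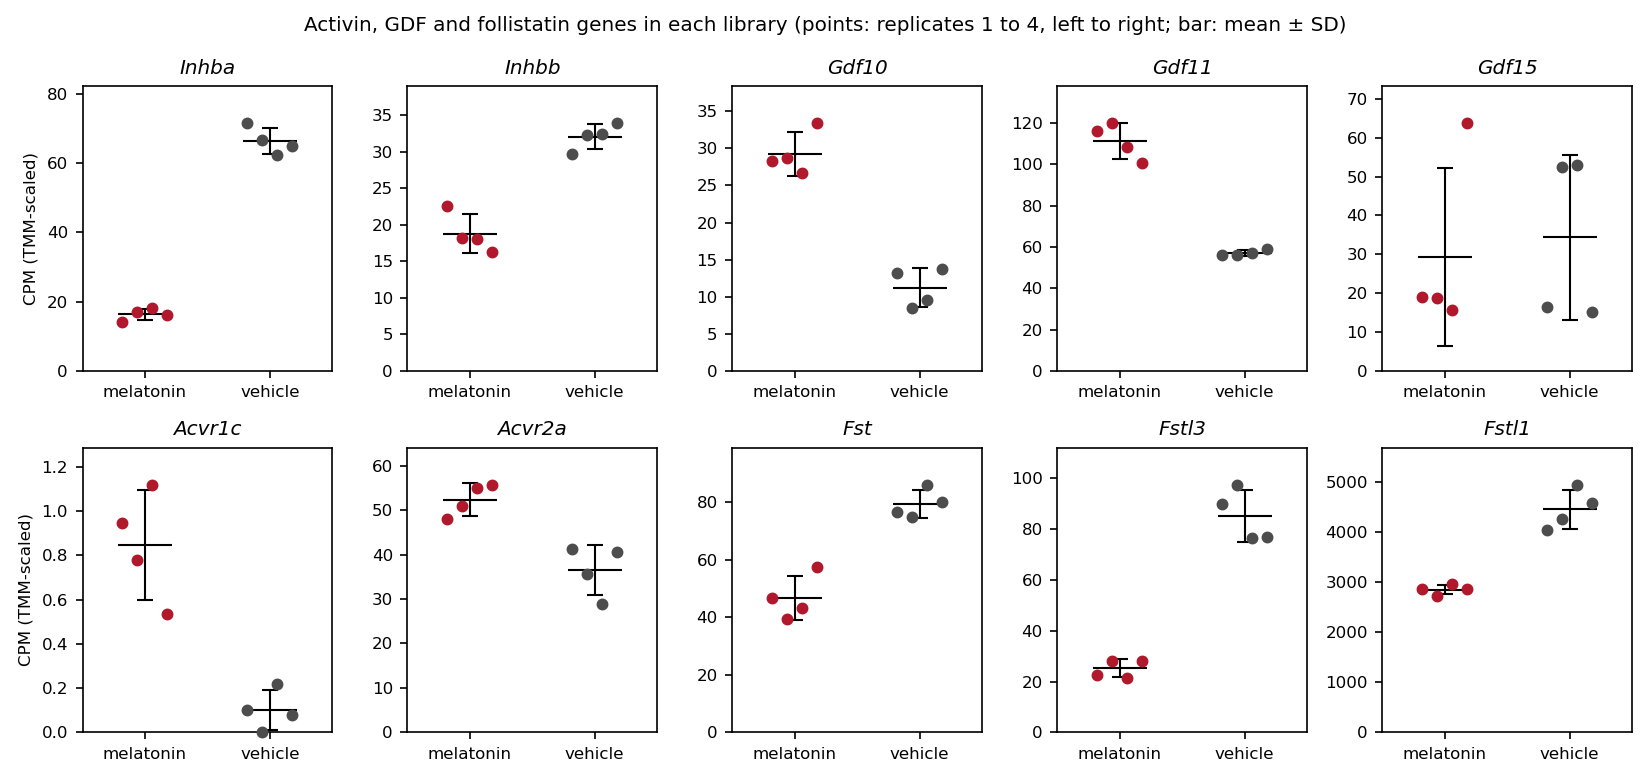
Levels of the 10 genes in each library, in CPM on a linear axis that starts at 0 in each panel, with melatonin libraries on the left and vehicle libraries on the right. Points are libraries and bars are group means ± SD (n = 4). Gdf15 is the gene whose groups overlap, with 63.7 CPM in melatonin replicate 4 and 53.1 CPM in vehicle replicate 3.

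**Figure D2:**
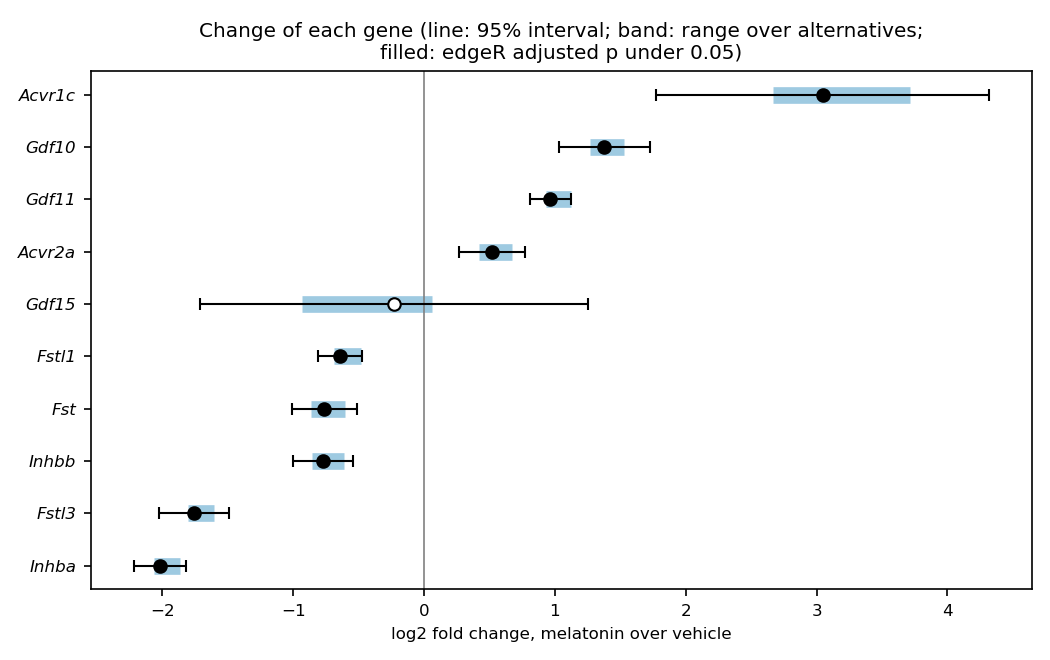
Log2 fold changes of the 10 genes, melatonin over vehicle, with 95% confidence intervals from the edgeR fit as lines, the range over the alternatives as bands, and filled points where the adjusted p was under 0.05. Inhba and Fstl3 lie lowest, at −2.02 and −1.76, Gdf10 lies at 1.38, and the interval of Gdf15 runs from −1.71 to 1.25. The filled point of Acvr1c carries no weight, because only the melatonin libraries brought this gene past the filter.

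Inhba (ENSMUSG00000041324, GRCm38 13:16011851-16031621, plus strand), the βA subunit gene, had 14.2, 17.1, 18.1 and 16.0 CPM in melatonin replicates 1 to 4, against 71.5, 66.7, 62.3 and 64.9 CPM in vehicle replicates 1 to 4. Every melatonin library lay under every vehicle library, by more than the spread within either group. Inhba averaged 16.3 ± 1.66 CPM with melatonin and 66.4 ± 3.89 CPM with vehicle, a log2 fold change of −2.02 ± 0.09 (4.06-fold lower, edgeR adjusted p = 5.4e-07). By p it ranked 27 among all tested genes. Over 18 alternative settings its log2 fold change stayed between −2.06 and −1.86 and it was called in every one.

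Inhbb (ENSMUSG00000037035, 1:119415465-119422248, minus strand), the βB subunit gene, had 22.6, 18.2, 18.03 and 16.3 CPM in melatonin replicates 1 to 4, against 29.7, 32.3, 32.4 and 33.9 CPM in vehicle replicates 1 to 4. It fell less than Inhba, with no overlap between groups: the means were 18.8 ± 2.66 CPM with melatonin and 32.1 ± 1.76 CPM with vehicle (log2 fold change −0.77 ± 0.10, edgeR adjusted p = 0.00031). Within each library, the ratio of Inhba to Inhbb counts was 0.629, 0.939, 1.003 and 0.982 in melatonin replicates 1 to 4 and 2.41, 2.06, 1.92 and 1.92 in vehicle replicates 1 to 4. Inhba counts were thus about level with Inhbb counts in 3 melatonin libraries, below them in melatonin replicate 1, and above them in all vehicle libraries. On the log2 scale the ratio differed by −1.25 (two-sided exact permutation test over libraries, p = 0.0286, the smallest that 4 against 4 can give, 0.0381 after adjustment over the 4 planned ratios, and 0.0429 over the 3 that leave out Acvr1c).

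Among the follistatin genes, Fstl3 had the largest fold change and Fstl1 the highest level. Fst (ENSMUSG00000021765, 13:114452290-114458951, minus strand), encoding follistatin, had 46.8, 39.5, 43.3 and 57.5 CPM in melatonin replicates 1 to 4, against 76.5, 74.9, 86.1 and 79.9 CPM in vehicle replicates 1 to 4. All melatonin values lay under all vehicle values, with means of 46.7 ± 7.72 CPM with melatonin and 79.3 ± 4.97 CPM with vehicle (log2 fold change −0.76 ± 0.11, edgeR adjusted p = 5e-04). Fstl3 (ENSMUSG00000020325, 10:79777272-79782630, plus strand), whose product binds activin and myostatin, had 22.7, 28.2, 21.6 and 28.3 CPM in melatonin replicates 1 to 4, against 89.8, 97.5, 76.5 and 77.0 CPM in vehicle replicates 1 to 4. The highest melatonin library was far below the lowest vehicle library, and the log2 fold change was −1.76 ± 0.12 (3.38-fold lower, edgeR adjusted p = 5.1e-06). In the annotation Fstl3 shares 1157 exonic bases with Prss57 on the opposite strand, and the labels do not say whether the counting used strand. Prss57 itself had 33 counts over the melatonin libraries and 69 over the vehicle libraries. Fst and Acvr1c share 115 and 168 exonic bases with the antisense genes Gm47040 and Gm13544, which were not analysed here.

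Fstl1 (ENSMUSG00000022816, 16:37776873-37836514, plus strand), a secreted glycoprotein gene of mesenchymal cells, had 2861, 2726, 2962 and 2872 CPM in melatonin replicates 1 to 4, against 4056, 4263, 4954 and 4586 CPM in vehicle replicates 1 to 4. Its mean CPM was above that of 99.9% of tested genes, and it fell with no overlap between groups (log2 fold change −0.65 ± 0.07, edgeR adjusted p = 0.00012).

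The 250 bases before the RefSeq start (GRCm38.p6) of Inhba (chr13:16011601-16011850, plus strand) and Fstl3 (chr10:79777024-79777273, plus strand) are shown because these were the members that fell at least 2-fold. They are read 5′ to 3′ on the gene's strand, and capitals mark matches, on either strand, to 5 searched motifs (TGANTCA of AP-1, the SMAD box CAGACA, the nuclear receptor motif AGGTCA, the core promoter's TATA box TATAAA and the Sp1-type GC box GGGCGG).
Inhba: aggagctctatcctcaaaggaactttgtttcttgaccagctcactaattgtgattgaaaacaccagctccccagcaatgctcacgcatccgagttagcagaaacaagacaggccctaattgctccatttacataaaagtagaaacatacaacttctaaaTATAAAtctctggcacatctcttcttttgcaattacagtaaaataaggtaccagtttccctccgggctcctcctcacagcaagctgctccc
Fstl3: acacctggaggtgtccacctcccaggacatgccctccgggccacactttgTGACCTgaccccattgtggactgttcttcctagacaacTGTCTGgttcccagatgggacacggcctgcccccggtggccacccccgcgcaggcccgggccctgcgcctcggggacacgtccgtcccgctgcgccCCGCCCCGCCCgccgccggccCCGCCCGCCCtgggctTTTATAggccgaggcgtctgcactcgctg
The Inhba stretch holds a TATAAA match that begins 91 bases before the start and no other match, while the Fstl3 stretch holds 4 GC boxes, a SMAD box, an AGGTCA match and a TATAAA match, all on the reverse strand. These windows run 250 bases before to 50 after a start, and 11 of them covered 9 of the 10 members. The SMAD box was found in 1 of these 11 windows and in 21.0% of all 32851 mouse windows, AGGTCA in 2 and in 16.3%, TATAAA in 3 and in 13.6%, and the GC box in 7 and in 35.7%. AP-1 letters were in 0 of the 11 member windows and in 7.81% of all windows. Matches of different motifs did not overlap. A match is a stretch of letters and not a known site.

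Inhba fell further than Fst but not detectably further than Fstl3. The ratio of Inhba to Fst counts was 0.304, 0.432, 0.418 and 0.279 in melatonin replicates 1 to 4 and 0.935, 0.891, 0.723 and 0.812 in vehicle replicates 1 to 4, so the groups did not overlap. The log2 difference was −1.25 (exact permutation p = 0.0286, adjusted 0.0381 over 4 ratios and 0.0429 over 3). For Inhba over Fstl3, the ratios were 0.624, 0.605, 0.837 and 0.567 in melatonin replicates 1 to 4 and 0.797, 0.685, 0.814 and 0.843 in vehicle replicates 1 to 4. These ranges overlapped, and the log2 difference of −0.27 did not pass (exact permutation p = 0.114, adjusted 0.114), which does not show that the ratio was the same in both groups. With any melatonin library left out, the ratios of Inhba to Fst and to Inhbb had an exact adjusted p of 0.057 over the 4 planned ratios and of 0.0429 over the 3 without Acvr1c. Since the ratios are of counts without length, they compare groups and not the amounts of 2 transcripts.

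**Figure D3:**
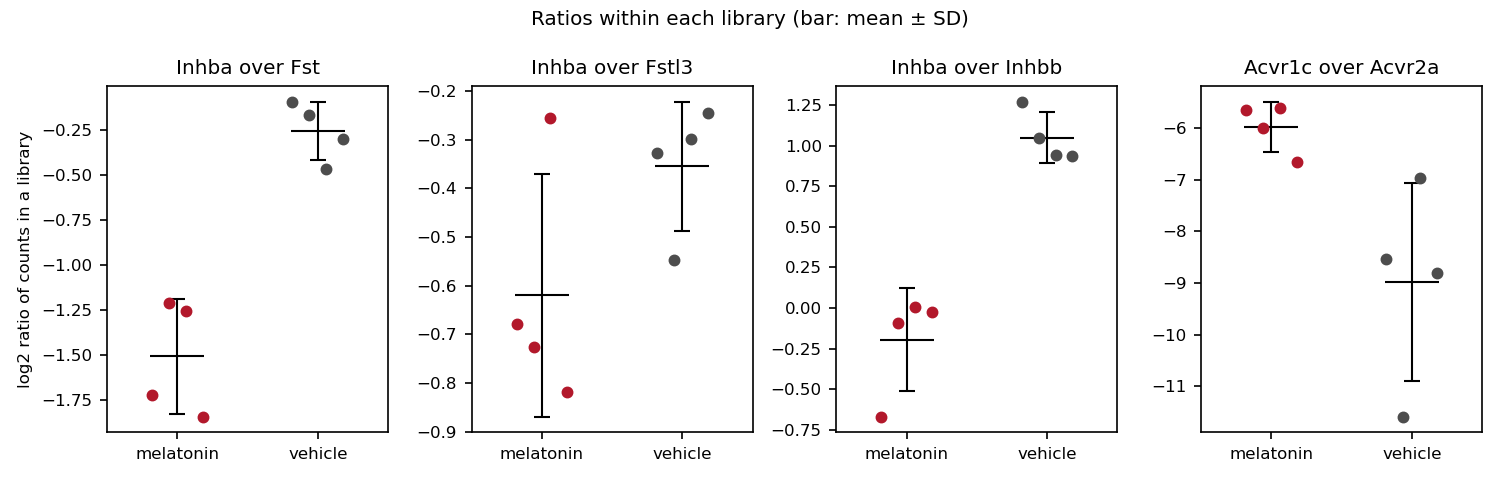
Log2 ratios of counts within each library for 4 gene pairs, with melatonin libraries on the left and vehicle libraries on the right. Points are libraries and bars are group means ± SD (n = 4). Inhba over Fst averaged −1.51 with melatonin and −0.26 with vehicle, Inhba over Inhbb averaged −0.20 with melatonin and 1.05 with vehicle, and the Inhba over Fstl3 ranges overlap.

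The growth differentiation factors did not move as a block. Gdf10 (ENSMUSG00000021943, 14:33923587-33937983, plus strand), also called Bmp3b, had 28.3, 28.7, 26.6 and 33.4 CPM in melatonin replicates 1 to 4, against 13.2, 8.50, 9.60 and 13.7 CPM in vehicle replicates 1 to 4. The lowest melatonin library lay well above the highest vehicle library, and the log2 fold change was 1.38 ± 0.16 (edgeR adjusted p = 0.00011, 95% confidence interval 1.03 to 1.73). Gdf11 (ENSMUSG00000025352, 10:128882295-128891718, minus strand), the paralogue of myostatin, had 116, 120, 108 and 101 CPM in melatonin replicates 1 to 4, against 56.2, 55.9, 57.2 and 58.9 CPM in vehicle replicates 1 to 4. Its vehicle libraries were closely grouped, its melatonin libraries all lay above them, and the log2 fold change was 0.96 ± 0.07 (1.95-fold higher, edgeR adjusted p = 6.2e-06). Gdf11 thus rose while Fst and Fstl3, whose products bind GDF11, fell.

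The same upstream stretches of Gdf10 (chr14:33923337-33923586, plus strand) and Gdf11 (chr10:128891719-128891968, minus strand) are shown beside those of Inhba and Fstl3, with capitals as above. Of the counted members that rose, Gdf10 and Gdf11 rose most, Gdf11 by less than 2-fold (1.95-fold).
Gdf10: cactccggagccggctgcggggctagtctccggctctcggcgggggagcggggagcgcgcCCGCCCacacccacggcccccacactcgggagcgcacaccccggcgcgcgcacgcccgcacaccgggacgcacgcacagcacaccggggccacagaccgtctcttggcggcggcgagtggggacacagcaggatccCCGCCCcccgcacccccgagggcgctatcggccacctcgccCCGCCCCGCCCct
Gdf11: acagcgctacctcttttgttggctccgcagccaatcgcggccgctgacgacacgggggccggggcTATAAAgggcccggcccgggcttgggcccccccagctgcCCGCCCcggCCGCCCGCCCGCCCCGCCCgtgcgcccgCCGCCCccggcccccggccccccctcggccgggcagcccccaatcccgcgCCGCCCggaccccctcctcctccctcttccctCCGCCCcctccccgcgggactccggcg
Both are rich in G and C, at 77.3% and 80.7% over the whole window against 47.7% for Inhba, 70.7% for Fstl3 and a median of 52.7% over all windows. The windows not printed here had 80.3% for Acvr2a, which also rose, and 64.3% for Inhbb and 66.7% for Fstl1, which fell. In the Gdf10 window all 4 matches were GC boxes, and in the Gdf11 window a TATAAA match stood with 9 GC boxes, the last of them past the start and so not printed.

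Gdf15 (ENSMUSG00000038508, 8:70629393-70632456, minus strand), a distant family member whose protein signals through the receptor GFRAL in the hindbrain and whose transcription responds to cell stress, had 19.0, 18.8, 15.7 and 63.7 CPM in melatonin replicates 1 to 4. In vehicle replicates 1 to 4 it had 16.6, 52.4, 53.1 and 15.3 CPM. Each group therefore held low and high libraries, with 1 high library under melatonin (replicate 4) and a pair under vehicle (replicates 2 and 3). The log2 fold change of −0.23 ± 0.63 did not pass (edgeR adjusted p = 0.81, 95% confidence interval −1.71 to 1.25), and the interval covers changes of more than 2-fold either way. Without melatonin replicate 4 the log2 fold change was −0.93 (edgeR adjusted p = 0.25). Without vehicle replicate 2 or 3 it was 0.05 and 0.06 (edgeR adjusted p = 0.97 and 0.96). The SD of its log2 CPM within groups was 0.949, above that of 99.3% of the 9268 genes with a mean of at least 10 CPM, whose median was 0.132.

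Stress response genes were read beside Gdf15. Ddit3, the stress response transcription factor CHOP, had 94.1, 92.8, 90.5 and 106 CPM in melatonin replicates 1 to 4, against 60.9, 69.6, 69.3 and 69.3 CPM in vehicle replicates 1 to 4. Its groups did not overlap, and it rose (log2 fold change 0.51 ± 0.07, edgeR adjusted p = 5e-04). Chac1, a glutathione-degrading enzyme gene of the same response, was highest in melatonin replicate 4, at 12.2 CPM. It had 6.16 to 7.26 CPM in the other melatonin libraries. In vehicle replicates 2 and 3, where Gdf15 was also high, Chac1 had 6.55 and 6.77 CPM. In vehicle replicates 1 and 4, where Gdf15 was low, Chac1 had 5.92 and 6.50 CPM. Atf4 had 214, 220, 209 and 200 CPM in vehicle replicates 1 to 4. With melatonin it had 198 to 231 CPM, also with its highest value in melatonin replicate 4. This library also stood apart on the second principal component, and ribosomal protein genes took 5.05% of its counts. They took 3.67% to 3.87% in the other melatonin libraries. Of 15 integrated stress response genes, 2 rose, 5 fell and 8 did not pass, beside 18.1% higher and 18.5% lower over all tested genes. The median log2 fold change of these 15 genes was −0.20. The 3 with the smallest p were Slc7a11, the cystine transporter (−1.57 ± 0.12, edgeR adjusted p = 9e-06), Vldlr (−0.90 ± 0.08, 2e-05) and the mitochondrial folate enzyme gene Aldh1l2 (−0.95 ± 0.11, 9.4e-05). Of 12 p53 target genes, another set that Gdf15 belongs to, 4 rose, 2 fell and 6 did not pass, with a median of −0.000912. Among them the stress-induced Sesn1 rose (0.78 ± 0.07, edgeR adjusted p = 2.8e-05), the cell cycle inhibitor gene Cdkn1a fell (−0.62 ± 0.06, 5.8e-05) and the pro-apoptotic Bbc3 rose (0.52 ± 0.07, 0.00035).

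Of the receptors, Acvr2a (ENSMUSG00000052155, 2:48814109-48903269, plus strand), the activin type IIA receptor gene, had 47.9, 50.9, 55.0 and 55.7 CPM in melatonin replicates 1 to 4, against 41.2, 35.7, 28.9 and 40.5 CPM in vehicle replicates 1 to 4. The groups did not overlap, though the lowest melatonin and highest vehicle libraries were close, and the log2 fold change was 0.52 ± 0.11 (edgeR adjusted p = 0.0054). Acvr2a shares 446 exonic bases with Orc4 on the opposite strand, which had 13.4 to 16.0 CPM with melatonin and 11.2 to 14.01 CPM with vehicle.

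Acvr1c (ENSMUSG00000026834, 2:58267453-58357895, minus strand) encodes the type I receptor ALK7, which is known from adipocytes and serves activin B and GDF3 among others. It was scarce: 49, 33, 60 and 20 counts in melatonin replicates 1 to 4, against 5, 0, 10 and 4 counts in vehicle replicates 1 to 4. The least melatonin library still had more counts than the highest vehicle library, at 0.537 CPM against 0.219 CPM. Its fitted log2 fold change was 3.05 ± 0.57, ranging from 2.67 to 3.72 over the alternatives. No p is given for this change, because only the melatonin libraries carried Acvr1c past the filter. Over the libraries it had 162 counts with melatonin and 19 with vehicle, and on library totals before TMM scaling only the melatonin libraries reached the filter's minimum of 0.202 CPM. The adipocyte markers given above moved with it, Adipoq averaging 133 CPM with melatonin and 31.2 CPM with vehicle, and their part in the Acvr1c result was not tested. The log2 ratio of Acvr1c to Acvr2a counts, with 0.5 added to both because of the library at 0, averaged −5.98 ± 0.49 with melatonin and −8.98 ± 1.92 with vehicle, a difference of 2.998. No p is given for this ratio, because the filter let Acvr1c in through the melatonin libraries alone. Without vehicle replicate 2, the library at 0, the difference was 2.13.

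The order of the transcripts by level differed between groups. On a TPM-like scale, in which counts are divided by the length of the gene's exons and scaled to a common total in each library, Fstl1 was highest in both groups, at 1828 ± 135 with melatonin and 2640 ± 196 with vehicle. Gdf11 came next with melatonin (86.2 ± 8.90), while with vehicle (40.9 ± 1.88) every library lay below Fstl3 and Fst. Its vehicle range of 38.9 to 43.1 fell inside that of Gdf15, 24.5 to 80.9, so these are not ordered. Fstl3 averaged 32.2 ± 3.27 with melatonin, near Fst at 31.9 ± 4.13, and 101 ± 12.3 with vehicle, where Fst averaged 50.3 ± 2.94. With melatonin the ranges of the neighbours Gdf11 and Gdf15, Gdf15 and Fstl3, Fstl3 and Fst, and Fst and Acvr2a overlapped, so their order is not resolved. Below them came Gdf10 (17.6 ± 0.877), Inhbb (13.9 ± 2.30) and Inhba (8.05 ± 1.07). With vehicle Inhba (30.2 ± 2.61) stood above Inhbb (21.9 ± 1.18), Acvr2a (18.8 ± 3.47) and Gdf10 (6.31 ± 1.64), and the ranges of Gdf15 and Fst and of Inhbb and Acvr2a overlapped. Acvr1c was the lowest in both groups, at 0.289 ± 0.0981 with melatonin and 0.0312 ± 0.0274 with vehicle.

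**Figure D4:**
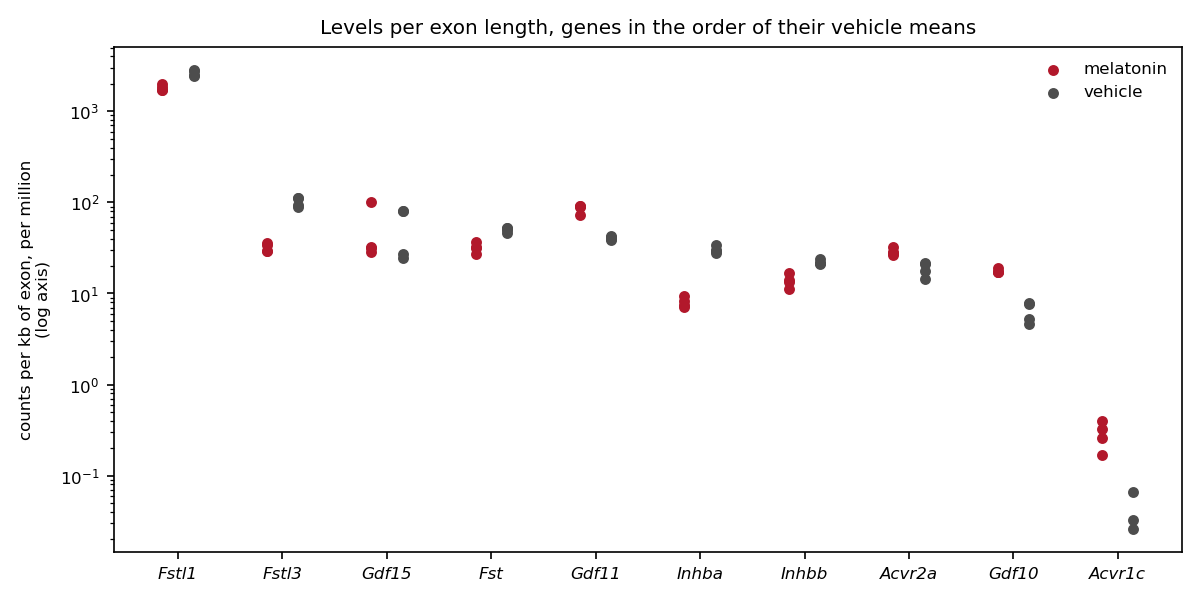
Levels per length of the 10 genes in each library, on the TPM-like scale (counts per kb of exon, scaled to a common total) and a log axis, with melatonin left of vehicle for each gene. Points are libraries, and the vehicle library with no Acvr1c count is not drawn. Inhba averages 8.05 with melatonin and 30.2 with vehicle, and Fstl1 averages 1828 with melatonin and 2640 with vehicle.

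The members' pathway was then described with 8 lists of related genes, the stress and p53 lists above included. Over these lists, 91 of 109 genes were tested, of which 14 (15.4%) rose and 37 (40.7%) fell, beside 18.1% and 18.5% of all tested genes. Their median log2 fold change was −0.20, and that of all tested genes was 0.01. The lists were chosen with earlier results of these data known, and the stress and p53 lists are not activin pathway genes. These shares therefore describe the lists and are not a test. The counts of each list below stand beside the same 18.1% higher and 18.5% lower of all tested genes. The lists share genes: Ldlrad4, Pmepa1, Skil and Smad7 are listed both as SMAD regulators and as SMAD2 and SMAD3 targets. Cdkn1a is listed both as such a target and as a p53 target. Each shared gene counts once in the totals above but in every list that holds it. Of 14 SMAD2 and SMAD3 target genes, 11 fell, 1 rose and 2 did not pass, with a median of −0.79. The collagen gene Col1a1 averaged 6658 ± 387 CPM with melatonin and 13770 ± 1328 CPM with vehicle (−1.05 ± 0.08, edgeR adjusted p = 1.3e-05), and the latent TGF-β binding protein gene Ltbp2 fell by 1.25 ± 0.12 on the log2 scale (3.8e-05). Cdkn2b, the cell cycle inhibitor p15, was the target that rose (0.66 ± 0.06, edgeR adjusted p = 3.1e-05). These genes also respond to TGF-β, and the list does not tell activin from it.

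Of 14 receptors and co-receptors outside the members, 6 fell, 1 rose and 7 did not pass. The 3 with the smallest p were all lower: Acvrl1, a type I receptor for BMP9 and BMP10 in endothelium (−1.39 ± 0.08, edgeR adjusted p = 2.2e-06), Bmpr1b, a BMP type I receptor (−1.61 ± 0.11, 4.6e-06), and Acvr1b, the main activin type I receptor ALK4 (−0.74 ± 0.10, 0.00036). Acvr1b averaged 59.9 ± 8.13 CPM with melatonin and 100 ± 6.75 CPM with vehicle, and so moved against Acvr2a. The second activin type II receptor gene, Acvr2b, was scarce, with 60 counts over the melatonin libraries and 64 over the vehicle libraries, and did not pass (edgeR adjusted p = 0.89).

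Of 7 other ligand genes tested, 1 rose and 3 fell. Gdf6 and Gdf5, ligands known from joint and cartilage formation, averaged 1.96 ± 0.573 and 0.414 ± 0.139 CPM with melatonin and 16.0 ± 2.34 and 1.87 ± 0.0895 CPM with vehicle (log2 fold changes −3.02 ± 0.22 and −2.15 ± 0.25, edgeR adjusted p = 6.5e-06 and 0.00013). Gdf1 rose (1.504 ± 0.0996, edgeR adjusted p = 4.5e-06), but it lies within Cers1 on the same strand, and Cers1 moved alike, with 14.8 to 17.6 CPM under melatonin and 5.61 to 6.26 CPM under vehicle. How reads were shared between this pair is not known, so the Gdf1 value is uncertain. Among 11 other genes, for proteins with a follistatin domain or for propeptide antagonists, 3 rose and 4 fell. A follistatin domain does not by itself make a protein an inhibitor of activin, as with Fstl1. The paralogues Smoc1 and Smoc2 went opposite ways (1.68 ± 0.18 and −1.47 ± 0.13, edgeR adjusted p = 0.00011 and 2e-05), and Sparc, an abundant matricellular gene, fell by 0.48 ± 0.07 (0.00047).

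Of 6 proteases that activate ligand precursors, 3 fell and the other 3 did not pass. Pcsk5, a proprotein convertase, had a log2 fold change of −1.32 ± 0.07 (edgeR adjusted p = 9.6e-07), and the related metalloproteases Tll1 and Bmp1, which can release myostatin and GDF11 from their propeptides, fell by 2.07 ± 0.23 and 0.50 ± 0.06 (edgeR adjusted p = 8.6e-05 and 0.00017). Of 17 SMAD proteins and regulators, 2 rose, 6 fell and 9 did not pass. The SMAD inhibitor gene Ldlrad4 and the co-repressor gene Tgif1 fell (−0.95 ± 0.09 and −0.70 ± 0.08, edgeR adjusted p = 4.7e-05 and 0.00012), and Smad9, a BMP-pathway SMAD, rose (1.07 ± 0.17, 0.00073).

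**Figure D5:**
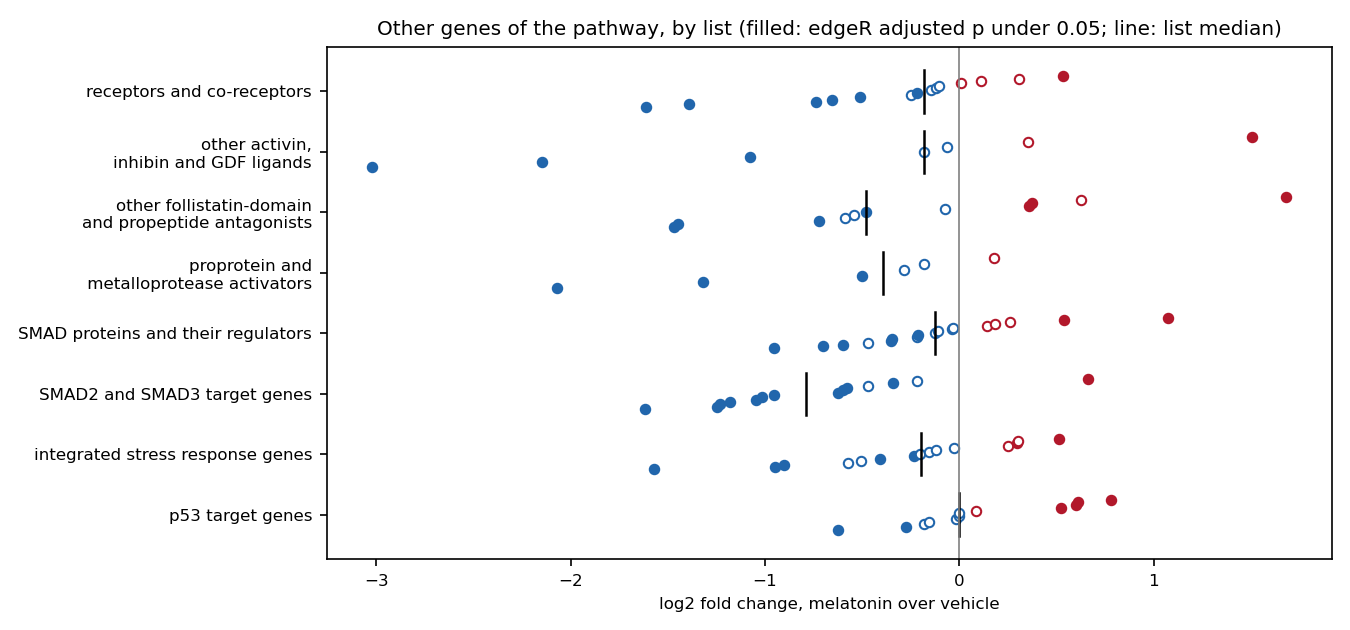
Log2 fold changes, melatonin over vehicle, of the tested genes in each pathway list. Each point is a gene, filled where it passed the adjusted threshold of 0.05, and vertical lines mark list medians. Most SMAD2 and SMAD3 targets lie below 0, with a median of −0.79, whereas the p53 targets centre on −0.000912.

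Markers of other cells were read beside these genes, and their counts stand beside 18.1% higher and 18.5% lower of all tested genes. Macrophage markers summed to 59.0 to 135 CPM with melatonin and 108 to 157 CPM with vehicle. Of 7 tested, Mrc1 was called higher and Csf1r lower, and when 1 library was left out these counts ran from 0 to 2 each way. Endothelial markers summed to 48.9 to 57.7 CPM with melatonin and 32.1 to 40.3 CPM with vehicle. The sum followed Tek, which rose (35.3 CPM with melatonin and 17.1 CPM with vehicle), while Vwf fell (0.576 CPM with melatonin and 2.48 CPM with vehicle) and 5 of the 7 did not pass. Satellite cell and myoblast markers summed to 375 to 507 CPM with melatonin and 527 to 727 CPM with vehicle. Vcam1 made this difference (379 CPM with melatonin and 543 CPM with vehicle) and was the 1 of 6 called, whereas Myog had 10.2 CPM with melatonin and 6.48 CPM with vehicle, and Myod1 had 4.43 CPM with melatonin and 2.52 CPM with vehicle. Pax7 and Myf5 were not analysed here. Pericyte and smooth muscle markers came to 96.1 to 141 CPM with melatonin and 102 to 136 CPM with vehicle, with 2 of 7 higher and 1 lower, and tenocyte markers to 1030 to 1240 CPM with melatonin and 944 to 1300 CPM with vehicle, with 1 of 5 lower. Glial markers came to 55.9 to 59.7 CPM with melatonin and 82.7 to 101 CPM with vehicle, following Ncam1, which fell (39.5 CPM with melatonin and 76.4 CPM with vehicle), while Sox10 rose (9.89 CPM with melatonin and 5.85 CPM with vehicle). The genes named in these lists were chosen after their values were seen. Every gene in the table has at least 11 counts in total, so no marker in it could be at 0 in all libraries. The part of these cells in the member results was not tested.

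By level over the 8 libraries, the genes most like each member were found as the smallest root mean square difference of centred log2 CPM, among genes with a mean of at least 10 CPM. Group membership alone gives much of such likeness. For Inhba they were Mthfd1l, a mitochondrial folate enzyme gene (0.0824 on the log2 scale), and Plaur, the urokinase receptor gene (0.119). For Fstl3 they were Mgarp (0.111) and the secreted glycoprotein gene Stc2 (0.125), and for Fst they were Dpysl3 (0.0497) and the Wnt antagonist gene Frzb (0.0589). Inhbb was closest to Sfxn5 (0.0760) and Ly6c1 (0.0851), and Fstl1 to Mvp, the major vault protein gene (0.0390), and Sgpp1 (0.0486). Among the genes that rose, Gdf11 was closest to Slc9a9 (0.0521) and Fam117a (0.0563), Gdf10 to Gdf1 (0.155) and Id4 (0.176), and Acvr2a to Fbxo45 (0.0887) and Fam13c (0.0909). The scarce Acvr1c, whose log2 CPM is shrunk by the added prior count, was closest to Lmo7 (0.0674) and Slc25a42 (0.104). Gdf15 had no close neighbour, the nearest being Dcbld2 (0.462) and Rapgef1 (0.495).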

How the data were processed

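The authors deposited raw counts, whole numbers per Ensembl gene, for 8 libraries. Every gene in the table has at least 11 counts in total. The submitters' processing notes list build mm10, and HISAT2 2.0, StringTie 1.3.3b and DESeq2 1.12.4 among the tools, with Trimmomatic 0.36, FastQC 0.11.2 and bedtools 2.26.0. No source used here gives the counting program, annotation release or strand setting, so reads of overlapping genes cannot be told apart. Columns prefixed as control were read as vehicle. Symbols, positions and exon lengths came from GENCODE M21 on GRCm38, which held 20720 of 20781 IDs.

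Genes were filtered with filterByExpr (16565 kept), scaled with TMM and compared with edgeR 4.0.16 (robust quasi-likelihood F-test, group as the only term, R 4.3.3), with Benjamini-Hochberg adjustment over all tested genes. A standard error is the log2 fold change divided by the square root of F. Ratios of counts were compared by two-sided exact permutation over libraries. Alternatives were other scalings, filters and thresholds, a minimum fold, limma-voom (limma 3.58.1), DESeq2 1.42.0, a replicate block and fits without each library in turn. On simulated counts for melatonin against vehicle (16565 genes), 100 genes were changed 1.5-fold and 100 were changed 2-fold. Of these, 20% and 68% were recovered, with 4.35% false among those called. Far fewer genes changed there than were called in the data (36.5%), so these shares do not apply to the real comparison.

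The members and gene lists were chosen with earlier results of these data known. Named genes are the 10 members, the 3 smallest p of each pathway list and the 2 genes most like each member, and others were chosen after their values were seen. Library pairs within a group had a chi-square per gene of 25.4 to 81.1, above sampling noise, and each counts as 1 replicate, as labelled. The series text calls them biological replicates, but whether they came from separate animals is not stated. The p-values therefore set the group difference against the spread between these libraries. With 0 counts, up to 3 counts are allowed (0.0560 to 0.0805 CPM), which covers counting error only. Promoter sequences are from RefSeq on GRCm38.p6, and a planned comparison of protein sequences was not run.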

Additional observations from a re-analysis of the deposited data

Results flagged for a closer look

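In 28 sets of 4 libraries examined for a library far from the others, 2 were marked, and chance marks about 1 in 20. Gdf15 was highest in melatonin replicate 4, at 63.7 CPM, where the other melatonin libraries had 15.7 to 19.0 CPM and the gap took 0.93 of the range. The log2 ratio of Inhba to Inhbb counts was lowest in melatonin replicate 1, at −0.668, where the other melatonin libraries lay between −0.091 and 0.00447 and the gap took 0.858 of the range.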

How the results depend on the processing

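Over 18 alternatives, Inhba, Gdf10, Gdf11 and Fstl3 passed in 18, and Inhbb, Acvr2a, Fst and Fstl1 in 17. The exception was a test against a minimum fold of 1.5, where they kept log2 fold changes of −0.77, 0.52, −0.76 and −0.65 with edgeR adjusted p of 0.12, 1, 0.17 and 0.49. Acvr1c was not tested with a minimum of 1 CPM in 4 libraries. In the fits that filtered as the main fit did, it depended on the melatonin libraries to pass, so its calls there say nothing of stability. The fit with no filter did not have this limit, but no p is given for Acvr1c there either. Gdf15 passed in none, with adjusted p from 0.25 to 1, and without each library ran from −0.93 (without melatonin replicate 4) to 0.060 (without vehicle replicate 3), positive also without vehicle replicate 2 (0.048). Under the minimum fold, 424 genes were called higher and 1071 lower against 2992 and 3062, 2 members were called lower against 5, and the pathway lists gave 4 higher and 17 lower against 14 and 37. A threshold of 0.01 gave 1754 higher. Library totals in place of TMM gave 5099 higher and moved the median of all genes to 0.17, with each called member keeping its direction. Leaving out each library gave 2403 to 3284 higher and 2671 to 3282 lower genes. Replicate numbers did not pair the libraries (correlations −0.071 to 0.038). With a replicate block, the ratios Inhba over Fst, Inhba over Inhbb and Acvr1c over Acvr2a kept −1.25, −1.25 and 2.998, but 4 pairs cannot give an exact p under 0.125. Without each library in turn, the log2 differences ran from −1.35 to −1.14 (Inhba over Fst), −0.39 to −0.20 (Inhba over Fstl3), −1.31 to −1.09 (Inhba over Inhbb) and 2.13 to 3.67 (Acvr1c over Acvr2a), and Inhba over Fst and over Inhbb had an adjusted p of 0.057 without a melatonin library. Adjusted over the 3 Inhba ratios, chosen after seeing the data, both kept 0.0429 whichever library was left out. Calls of macrophage markers were not stable without 1 library (0 to 2 each way, against 1 each). By coding in place of exon length, 6 members with melatonin and 7 with vehicle kept their rank by level. On the given strand alone, 6 pairings of a motif with a member window that holds it were found against 13 on both strands.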

Other observations

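Dcbld2, a transmembrane protein gene, followed Gdf15 within groups, and was chosen after its values were seen. Its levels were 33.5, 33.1, 38.7 and 103 CPM in melatonin replicates 1 to 4, and 54.9, 175, 180 and 55.9 CPM in vehicle replicates 1 to 4. Melatonin replicate 4 and vehicle replicates 2 and 3 were thus the high libraries for both genes. Its deviations from the group means differed from those of Gdf15 by a root mean square of 0.165 on the log2 scale, and the next gene, Snx3, by 0.451. Myostatin (Mstn), the ligand that follistatins are best known to bind in muscle, was too scarce to test, with 34 counts over the melatonin libraries and 6 over the vehicle libraries.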
